A study of Mus musculus with 9 samples.

Results

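The genes described here are 10 widely used transcriptional targets of YAP, the coactivator encoded by Yap1: Ajuba, Lats2, Amotl2, Ptpn14, Cyr61, Ctgf, Crim1, Axl, Myof and Ankrd1. They were taken by name, as canonical targets, with earlier results of these data known. Of these 10 genes, 9 had a row among the 17482 genes of the table, and all 9 passed the filter on low values that left 15251 genes. Ankrd1 was not analysed here. Cyr61 and Ctgf are the table's names for the genes now called Ccn1 and Ccn2.

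The Hippo pathway is a kinase cascade in which the kinases LATS1 and LATS2 phosphorylate YAP and its paralogue TAZ (gene Wwtr1) and keep them out of the nucleus. When the cascade is off, YAP and TAZ enter the nucleus, bind the TEAD family of DNA-binding proteins and raise transcription of targets that include secreted matrix proteins and also brakes on the pathway itself. In the developing cerebellum YAP is known as a factor of proliferating granule neuron progenitors under Hedgehog signalling, and in the mature brain most YAP is found in glia and vascular cells rather than in neurons.

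Promoter windows of 3 genes illustrate the sequence that TEAD proteins recognise, GGAATG, which reads CATTCC on the opposite strand. They are the 250 bases before the RefSeq start of Ccn1 (the Cyr61 gene, chr3:145649986-145650235, minus strand), Ajuba (chr14:54577662-54577911, minus strand) and Myof (chr19:38043578-38043827, minus strand), on GRCm38.p6. Ccn1 is shown as the textbook target. Ajuba and Myof were chosen by their results below. At an adjusted p below 0.05, Ajuba was lower in both Yap1-floxed groups and Myof was higher in 1 of them. The 3 windows therefore do not stand for all 10 genes. Each is written 5′ to 3′ on the gene's strand, and the capitals mark the TEAD motif in either orientation.
Ccn1: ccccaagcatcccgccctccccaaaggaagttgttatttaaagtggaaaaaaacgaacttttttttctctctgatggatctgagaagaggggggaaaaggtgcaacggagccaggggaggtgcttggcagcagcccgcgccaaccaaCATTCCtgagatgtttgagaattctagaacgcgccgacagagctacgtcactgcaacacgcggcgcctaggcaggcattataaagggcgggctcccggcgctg
Ajuba: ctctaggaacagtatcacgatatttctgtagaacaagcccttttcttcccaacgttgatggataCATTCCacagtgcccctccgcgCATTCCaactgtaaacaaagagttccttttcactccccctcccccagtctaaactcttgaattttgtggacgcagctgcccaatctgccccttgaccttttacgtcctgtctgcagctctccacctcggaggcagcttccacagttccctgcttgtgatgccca
Myof: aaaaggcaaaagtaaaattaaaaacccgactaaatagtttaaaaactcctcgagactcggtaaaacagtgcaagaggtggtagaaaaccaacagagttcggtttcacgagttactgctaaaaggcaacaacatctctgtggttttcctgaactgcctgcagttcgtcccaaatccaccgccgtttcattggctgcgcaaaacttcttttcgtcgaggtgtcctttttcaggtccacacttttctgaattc
The Ccn1 window held 1 match, 103 bases before the start, and the Ajuba window held 2, at 186 and 164 bases before the start. Myof had no match in its 250 bases. Of the 10 genes, 9 had at least 1 window in the RefSeq table, and 7 of these 9 held the motif: Ptpn14, Ccn1, Axl, Amotl2, Ajuba, Crim1 and Ankrd1. The motif was found in 12.6% of all 32851 windows of the same length. The AP-1 motif TGANTCA, which can overlap the TEAD motif only at its outer letters, was in none of the 9 genes' windows and in 6.75% of all windows. A match describes these letters only and is not evidence that a protein was bound.

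Gene expression was measured by bulk RNA sequencing of mouse tumours at postnatal day 8 or 9, in 3 groups of 3 libraries, in a series on sex differences in Yap1 function. SG tumours were of genotype fSMO-M2;hGFAPcre. They expressed SMO-M2, an activated form of the Hedgehog signal transducer Smoothened, once hGFAPcre had recombined its allele. The rescued YSGr and the non-rescued YSGnr tumours were both fYap1;fSMO-M2;hGFAPcre, that is, they also carried floxed Yap1. All groups therefore shared SMO-M2 and the Cre driver, and no group without a tumour or without Cre was compared. The hGFAPcre transgene recombines in neural precursors that give rise to neurons and glia, so vascular, meningeal and microglial cells in the tissue are outside its lineage and keep Yap1. What rescue means, whether 1 or both Yap1 alleles were floxed, and whether each library is a separate animal are not stated in the labels. The p-values below therefore describe spread among libraries, part of which may be technical.

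Values are log2 CPM, read counts scaled to library size on a log2 scale, as deposited. Effective library size, worked back from the values, was 3.92 M (mega) reads for YSGnr replicate 1 and 18.1 to 32.3 M for the other 8 libraries. Reads worked back for YSGnr replicate 1 summed to 9.66 M over genes, well above the effective size to which its values were scaled. In the other libraries the sum lay much nearer, such as 17.3 against 18.1 M in SG replicate 1. The reason was not tested. YSGr replicate 3 stood apart from its group: its summed granule neuron progenitor and Hedgehog tumour markers reached 4350 CPM, against 3324 and 2679 in the other YSGr libraries, 4647 to 4893 in YSGnr and 4975 to 5121 in SG. Xist was at 9.81 log2 CPM or above and the Y-linked genes Ddx3y and Kdm5d were at the table's lowest value, -3.52, in the YSGr libraries and YSGnr replicate 1. In SG and in YSGnr replicates 2 and 3, Xist was at -0.25 or below, Ddx3y at 4.97 or above and Kdm5d at 4.76 or above. YSGr and SG differ completely in these transcripts, so sex make-up and group cannot be told apart in that comparison. Tumour markers were detected in every library, with none of the 13 at the lowest value.

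Yap1 itself stood at 5.04, 5.11 and 5.03 log2 CPM in SG replicates 1 to 3. The YSGr replicates had 4.44, 3.31 and 2.79 and those of YSGnr 2.79, 2.57 and 1.99. All 6 floxed libraries were below all 3 SG libraries, and residual Yap1 was highest in YSGr replicate 1. The sources used here do not name the floxed exons, so reads from undeleted exons may remain. By limma with Benjamini-Hochberg adjustment over 15251 genes, the log2 fold change of Yap1 against SG was -1.55 for YSGr (adjusted p = 0.0327) and -2.61 for YSGnr (adjusted p = 0.0131). Leaving out any 1 of the SG libraries, YSGr replicate 2 or YSGnr replicate 2 ended the YSGr call of Yap1 (adjusted p up to 0.125), and any 1 of the SG libraries or YSGnr replicate 3 ended the YSGnr call (adjusted p up to 0.0955).

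With Yap1 lower in every floxed library, its 9 measured targets did not move together. Ajuba fell about as far in both floxed groups, Myof rose in YSGr, and no other target differed from SG past an adjusted p of 0.05. A gene was called when its adjusted p was below 0.05. Against SG, 2 of 9 targets were called in YSGr, 1 in each direction, where 10.5% of all tested genes were called (6.58% higher, 3.97% lower). In YSGnr 1 of 9 was called, in the lower direction, against 3.36% of all genes (1.19% higher, 2.17% lower). Both comparisons use the same 3 SG libraries.

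The median log2 fold change of the 9 targets was -0.09 in YSGr and -0.50 in YSGnr against SG, beside -0.02 and -0.01 over all tested genes. In YSGr 5 of the 9 targets were below 0 and in YSGnr 6. The libraries of the groups did not overlap for 4 targets in YSGr (Myof above SG; Ajuba, Cyr61 and Axl below) and for 4 in YSGnr (Ajuba, Crim1, Lats2 and Ptpn14, all below). Over all genes 36.8% did not overlap in YSGr (19.5% higher, 17.3% lower) and 38.2% in YSGnr (16.9% higher, 21.3% lower). So 4 of 9 is near the share of both directions together. In the lower direction alone, 3 of 9 in YSGr and 4 of 9 in YSGnr are above the shares of 17.3% and 21.3%, in a list of only 9 genes.

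**Figure D1:**
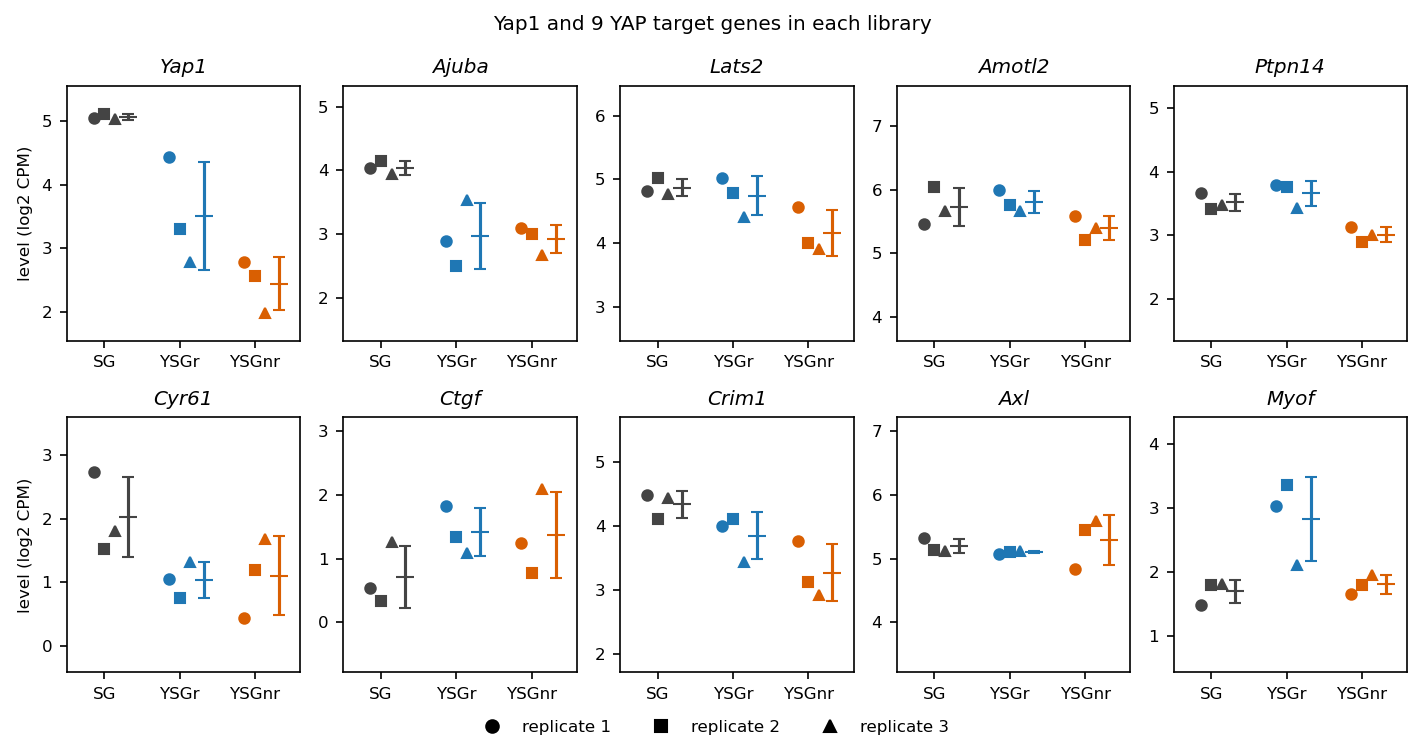
Level of Yap1 and of the 9 measured YAP targets in each of the 9 libraries, in log2 CPM (vertical axes all span the same number of log2 units but start at different levels); symbols mark the replicate number and bars the mean ± SD of 3 libraries. The 3 SG libraries lie above every floxed library for Yap1 and Ajuba, and the YSGr libraries lie above all others for Myof.

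Per length of the longest annotated transcript, the targets covered a wide range of abundance in SG. Amotl2 was the most abundant at 12.1 ± 2.58 CPM per kb (SD, n = 3), followed by Axl at 8.59 ± 0.67, Lats2 at 5.64 ± 0.53, Ajuba at 4.86 ± 0.36 and Crim1 at 3.41 ± 0.48. Cyr61 followed at 2.14 ± 0.99, Ptpn14 at 1.07 ± 0.10, Ctgf at 0.685 ± 0.24 and Myof at 0.458 ± 0.056 CPM per kb. In this order the mean ± SD ranges of Lats2 and Ajuba, Crim1 and Cyr61, Cyr61 and Ptpn14, and Ctgf and Myof overlapped, and those of the other neighbours did not. The matrix-protein genes Cyr61 and Ctgf, often used as YAP readouts in cultured cells, were thus among the scarcer targets here.

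Targets that act back on the pathway come first. Ajuba encodes a LIM-domain scaffold that binds LATS kinases and restrains them (ENSMUSG00000022178.11, chromosome 14, 54567472 to 54577558, GRCm38). The SG libraries held 4.04, 4.15 and 3.94 log2 CPM of Ajuba, the YSGr libraries 2.89, 2.497 and 3.53, and the YSGnr libraries 3.09, 3.01 and 2.67. Every floxed library lay below every SG library, and the 2 floxed groups overlapped each other. Against SG, Ajuba fell 2.10-fold in YSGr (log2 fold change -1.07, SE 0.25, adjusted p = 0.0301 by limma). In YSGnr it fell 2.17-fold (log2 fold change -1.12, SE 0.25, adjusted p = 0.0485). The difference between the floxed groups was 0.05 (95% confidence interval -0.52 to 0.62). In the mean of both floxed groups against SG, Ajuba was the only one of the 9 targets called (log2 fold change -1.10, SE 0.22, adjusted p = 0.0226), where 7.17% of all genes were called (3.74% higher, 3.42% lower). It was also the only target with no overlap between SG and the 6 floxed libraries, as had 15.8% of all genes (6.87% higher, 8.98% lower).

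The YSGr library with the highest Ajuba, replicate 3, is the one that stood apart in tumour markers. Without it the log2 fold change of Ajuba in YSGr was -1.35 (adjusted p = 0.00159 by limma). Leaving out any 1 of the SG libraries, YSGr replicate 1 or YSGr replicate 2 ended the YSGr call, with log2 fold changes from -1.35 to -0.83 and adjusted p up to 0.117 over all 9 single omissions. In YSGnr the call was kept in 3 of 9 single omissions (YSGnr replicate 1, YSGr replicate 2 or YSGr replicate 3 left out; adjusted p up to 0.187 in the others), with log2 fold changes between -1.20 and -0.99. It also ended with no filter on low values (adjusted p = 0.0546) and with no mean-variance trend (adjusted p = 0.0559). The call in the mean of the floxed groups ended when any 1 of the SG libraries or YSGr replicate 1 was left out (adjusted p up to 0.126).

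Between SG and the 2 YSGnr libraries that match it in Xist and Y-linked transcripts (replicates 2 and 3), Ajuba was lower by the same order, with a log2 fold change of -1.20 (adjusted p = 0.0248 by limma). The fit behind that value took its spread from the YSGr libraries as well. It called 21.8% of all genes, against 3.36% with all 9 libraries. After a transcript length and GC trend was removed from each library, the Ajuba log2 fold changes were -1.27 in YSGr (adjusted p = 0.013) and -1.17 in YSGnr (adjusted p = 0.0342). Among 13520 genes compared, those whose pattern over the 9 libraries lay nearest to Ajuba were Baz1a and Wasf2, with mean absolute differences of 0.11 and 0.13 log2 units after centring on SG.

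LATS2 is the kinase that phosphorylates YAP, and its gene is a target in a negative feedback loop (ENSMUSG00000021959.16, chromosome 14, 57689662 to 57758388). Lats2 was at 4.82, 5.02 and 4.77 log2 CPM in the SG libraries, at 5.03, 4.79 and 4.42 in those of YSGr, and at 4.57, 4.0002 and 3.90 in those of YSGnr. The YSGnr libraries were all below SG, whereas YSGr overlapped both. Neither difference from SG passed the test: the log2 fold change was -0.12 in YSGr (95% confidence interval -0.61 to 0.36) and -0.71 in YSGnr (-1.20 to -0.22, adjusted p = 0.0929 by limma).

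Amotl2 encodes an angiomotin-family junction protein that binds YAP and holds it outside the nucleus (ENSMUSG00000032531.15, chromosome 9, 102716672 to 102733418). Its SG libraries stood at 5.45, 6.05 and 5.67 log2 CPM, its YSGr libraries at 5.99, 5.76 and 5.66, and its YSGnr libraries at 5.58, 5.20 and 5.40. YSGr and SG covered nearly the same range, and YSGr lay above YSGnr in every library. None of its differences was called, with a log2 fold change of 0.08 in YSGr (95% confidence interval -0.33 to 0.49) and -0.33 in YSGnr (-0.73 to 0.08) against SG.

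PTPN14 is a protein tyrosine phosphatase that binds YAP in the cytoplasm (ENSMUSG00000026604.17, chromosome 1, 189728268 to 189876695). Levels of Ptpn14 were 3.66, 3.42 and 3.48 log2 CPM across the SG libraries, 3.79, 3.75 and 3.44 across YSGr, and 3.13, 2.90 and 3.01 across YSGnr. The 3 YSGnr libraries were lowest, below all SG and all YSGr libraries. Ptpn14 was the only one of the 9 targets called between the floxed groups, 1.57-fold higher in YSGr (log2 fold change 0.65, SE 0.16, adjusted p = 0.04995 by limma), in a comparison where 5.97% of all genes were called (5.09% higher in YSGr, 0.879% lower). Against SG its log2 fold change was 0.14 in YSGr (95% confidence interval -0.22 to 0.51) and -0.50 in YSGnr (-0.87 to -0.14, adjusted p = 0.104).

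Ptpn14 has the longest transcript of the 9, at 10.7 kb. Across genes, the rank correlation of transcript length with the deviation from the SG mean was -0.07, -0.53 and -0.51 in YSGnr replicates 1 to 3 0.15, 0.13 and -0.41 in YSGr, and -0.02, -0.11 and 0.17 in SG (a description across genes, which are not independent). Once the length and GC trend was removed, the difference between the floxed groups was 0.10 (adjusted p = 0.648 by limma) and that between YSGnr and SG was -0.04 (adjusted p = 0.884). YSGnr replicate 1 then stood at 3.10 log2 CPM, still below the SG range of 3.33 to 3.51, and YSGnr replicates 2 and 3 lay within it. The part of the length trend in the Ptpn14 values was not tested. The call ended in 16 of 21 alternatives and was kept in 2 of the 9 single omissions (YSGr replicate 3 or YSGnr replicate 1 left out), with adjusted p up to 0.212 in the other omissions. Hs6st1 and Pacs2 were the genes nearest to Ptpn14 over the 9 libraries, with mean absolute differences of 0.06 and 0.07 log2 units.

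**Figure D2:**
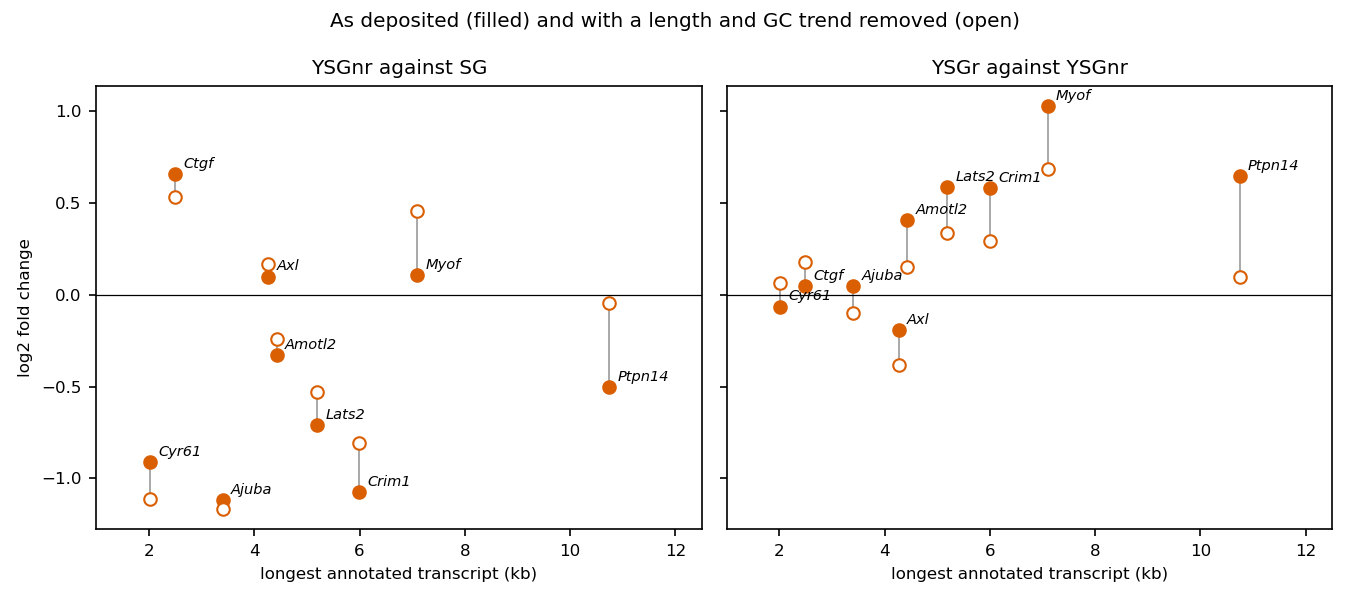
Log2 fold change of each target (vertical axis) against the length of its longest annotated transcript in kb (horizontal axis), as deposited (filled) and after a length and GC trend was removed from each library (open), for YSGnr against SG and YSGr against YSGnr. The long Ptpn14 moved from 0.65 to 0.10 between the floxed groups, whereas the short Ajuba stayed near -1.12 in YSGnr against SG.

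Cyr61 and Ctgf encode secreted matricellular proteins of the CCN family, which bind integrins and growth factors. Cyr61 (ENSMUSG00000028195.4, chromosome 3, 145646976 to 145649981) was at 2.73, 1.53 and 1.81 log2 CPM in the SG libraries. The YSGr libraries held 1.05, 0.76 and 1.32 and the YSGnr libraries 0.45, 1.19 and 1.68. All YSGr libraries lay below all SG libraries, while YSGnr replicate 3 lay within the SG range. The log2 fold change was -0.98 in YSGr (95% confidence interval -1.88 to -0.08, adjusted p = 0.159 by limma) and -0.91 in YSGnr (-1.82 to -0.01, adjusted p = 0.19), so neither passed the adjusted test.

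Ctgf (ENSMUSG00000019997.11, chromosome 10, 24595442 to 24598683) was at 0.55, 0.34 and 1.26 log2 CPM in the SG libraries, while YSGr had 1.83, 1.34 and 1.09 and YSGnr 1.25, 0.77 and 2.09. Its floxed libraries overlapped SG but averaged above it, the opposite side from Cyr61. The log2 fold change was 0.71 in YSGr (95% confidence interval -0.19 to 1.60, adjusted p = 0.306) and 0.66 in YSGnr (-0.24 to 1.56, adjusted p = 0.314), by limma over all genes.

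Single libraries moved both genes. Without SG replicate 1 the Cyr61 log2 fold change was -0.63 in YSGr and -0.56 in YSGnr, and without YSGnr replicate 3 that of Ctgf in YSGnr was 0.30, with none called.

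Depth limits both genes. Worked back to reads, Cyr61 had 77 to 118 reads in the SG libraries and 43 to 58 in YSGr, but 5 in YSGnr replicate 1, and Ctgf had 24.8 to 74.2 in SG and 9 in YSGnr replicate 1. The difference between the floxed groups was -0.06 for Cyr61 (95% confidence interval -0.97 to 0.84) and 0.05 for Ctgf (-0.85 to 0.95), intervals that leave room for differences near 2-fold either way. Without YSGnr replicate 1 the Cyr61 log2 fold change in YSGnr against SG was -0.58 (adjusted p = 0.274 by limma). With that library and YSGr replicate 3 both left out, Cyr61 was called lower in YSGr (log2 fold change -1.12, adjusted p = 0.0216), in a fit that called 49.5% of all genes.

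Cyr61 is also an immediate early gene, one that serum, stretch or tissue handling induces within minutes. Of 12 immediate early genes listed, 11 were tested. Lower calls numbered 2 in YSGr and 1 in YSGnr (beside 3.97% and 2.17% of all genes), with none called higher in either. In YSGr 9 of the 11 were below 0 and 2 above, with a median log2 fold change of -0.20. In YSGnr 6 were below 0 and 5 above, with a median of -0.02, so the list as a whole was nearly level with SG there. Egr1, a zinc-finger transcription factor, fell in YSGr by 2.13 log2 units (adjusted p = 0.00825 by limma) and in YSGnr fell by 1.73 (adjusted p = 0.0356). Ier2 was called in YSGr alone of these comparisons, where it fell by 0.81 (adjusted p = 0.0258). Their summed level was 252 to 281 CPM in SG, 163 to 233 in YSGr and 218 to 245 in YSGnr. Their part in the Cyr61 values was not tested.

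The remaining targets encode membrane proteins. CRIM1 is a transmembrane protein with cysteine-rich repeats that binds bone morphogenetic proteins (ENSMUSG00000024074.8, chromosome 17, 78200248 to 78376592). Crim1 was at 4.49, 4.11 and 4.44 log2 CPM in the SG libraries, at 4.01, 4.12 and 3.43 in the YSGr libraries, and at 3.77, 3.13 and 2.92 in the YSGnr libraries. All YSGnr libraries were below SG, and YSGr replicate 2 reached the lower edge of SG. With a log2 fold change of -1.07 in YSGnr (SE 0.26, 95% confidence interval -1.66 to -0.49), Crim1 was as far below SG as Ajuba but just missed the threshold (adjusted p = 0.0577 by limma), and in YSGr it was -0.49 (-1.08 to 0.10, adjusted p = 0.275).

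YSGnr replicate 1, the shallowest library, had the highest Crim1 and Lats2 of its group. Without it, YSGnr against SG compares libraries alike in sex-linked transcripts, and Crim1 (log2 fold change -1.32, adjusted p = 0.0119 by limma), Lats2 (-0.92, adjusted p = 0.0174) and Ptpn14 (-0.56, adjusted p = 0.0449) were then called lower along with Ajuba. That fit called 21.8% of all genes, against 3.36% with all 9 libraries. It also left YSGnr with replicates 2 and 3, which had the steepest length trends of the 9 libraries (rank correlations -0.53 and -0.51). With the trend removed, Ptpn14 in these replicates was at 3.45 and 3.50 log2 CPM, within the SG range of 3.33 to 3.51. Their Crim1 (3.39 and 3.17) and Lats2 (4.22 and 4.06) stayed below every SG library. The trend was not removed in a fit without YSGnr replicate 1. With the length and GC trend removed and all libraries kept, Crim1 was at -0.81 (adjusted p = 0.0529), Lats2 at -0.53 (adjusted p = 0.11) and Ptpn14 at -0.04.

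Endothelial, mural and astrocyte markers also had lower sums in YSGnr. The 14 endothelial markers summed to 321 to 352 CPM in SG, 308 to 338 in YSGr and 206 to 263 in YSGnr, with 3 of 14 called lower in YSGnr and none in YSGr. The 15 mural cell and fibroblast markers summed to 670 to 730 CPM in SG, 600 to 848 in YSGr and 435 to 482 in YSGnr, with 2 called lower in YSGnr and 1 called in each direction in YSGr. The 13 astrocyte and Bergmann glia markers, of cells inside the Cre lineage, summed to 3935 to 4136 CPM in SG, 3708 to 5061 in YSGr and 2686 to 3677 in YSGnr. In YSGnr 1 of them was called lower than in SG and 1 higher, and in YSGr 3 were called higher (Gfap, Hopx and Aldoc) and none lower. Of all genes, 3.97% were called lower and 6.58% higher in YSGr, and 2.17% and 1.19% in YSGnr. None of these endothelial, mural and astrocyte markers was at the table's lowest value in any library. Fewer cells of a type and less RNA per cell cannot be told apart in bulk tissue, and the part of these cells in the Crim1, Lats2 and Ptpn14 values was not tested.

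AXL is a receptor tyrosine kinase for the ligand GAS6, found among others on glia and microglia (ENSMUSG00000002602.16, chromosome 7, 25757273 to 25788705). Axl stood at 5.32, 5.14 and 5.12 log2 CPM among SG libraries, at 5.08, 5.10 and 5.11 among YSGr libraries, and at 4.84, 5.45 and 5.58 among YSGnr libraries. It was nearly level across SG and YSGr, and the YSGnr libraries lay on both sides of SG. Its log2 fold change was -0.09 in YSGr (95% confidence interval -0.52 to 0.33) and 0.10 in YSGnr (-0.32 to 0.52), neither called. The sum of the 9 microglia markers showed the same split within YSGnr. It was 127 CPM in replicate 1, below the 205 to 221 of SG, and 293 and 285 in replicates 2 and 3, above it. Single markers did not all split this way. In YSGnr 1 lay wholly above SG (Fcrls, log2 fold change 1.06) and 2 wholly below (among them Itgam, -0.98), with none of the 9 called. The part of microglia in the Axl values was not tested.

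Myoferlin, the product of Myof, is a ferlin-family protein of membrane repair and vesicle traffic (ENSMUSG00000048612.16, chromosome 19, 37899036 to 38043577). Myof stood at 1.48, 1.79 and 1.81 log2 CPM among SG libraries, at 3.03, 3.36 and 2.10 among YSGr libraries, and at 1.66, 1.80 and 1.95 among YSGnr libraries. YSGr was above SG and YSGnr in every library, with replicate 3 closest to them, and YSGnr overlapped SG. Myof rose 2.20-fold in YSGr (log2 fold change 1.14, SE 0.31, adjusted p = 0.0478 by limma), opposite to the fall of Yap1. In YSGnr its log2 fold change was 0.11 (95% confidence interval -0.59 to 0.81), and the difference between the floxed groups, 1.03, did not pass the test (0.33 to 1.73, adjusted p = 0.071).

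The Myof call was kept in 2 of 9 single omissions (YSGr replicate 3 or YSGnr replicate 1 left out; adjusted p up to 0.182 in the others), and without YSGr replicate 3 the log2 fold change was 1.502 (adjusted p = 0.00162). Among the filters, scalings and library sets tried, the call ended with no filter, with median scaling, with quantile normalization and with the YSGr and SG libraries alone (adjusted p from 0.0527 to 0.0706), and with the length and GC trend removed it was kept (log2 fold change 1.15, adjusted p = 0.0298). Neu4 and Asap3 were the genes nearest to Myof over the 9 libraries, with mean absolute differences of 0.09 and 0.11 log2 units. Myof counts were low, 49 to 110 reads per SG library and 12 in YSGnr replicate 1.

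Some markers of oligodendrocytes and of differentiated granule neurons were also called higher than in SG in both floxed groups. The 6 oligodendrocyte markers summed to 557 to 1067 CPM in SG, 2228 to 3476 in YSGr and 787 to 1696 in YSGnr. In YSGr 6 of 6 were called higher and in YSGnr 2 of 6, where 6.58% and 1.19% of all genes were called higher. Opalin, in both counts, averaged -2.05 log2 CPM in SG. It passed the filter at 0 log2 CPM only through floxed libraries, so its calls carry no weight. The 7 markers of differentiated granule neurons summed to 99.1 to 124 CPM in SG, 430 to 657 in YSGr and 145 to 251 in YSGnr. Of these, 6 of 7 were called higher in YSGr and 5 of 7 in YSGnr, beside the same 6.58% and 1.19% of all genes. Progenitor and Hedgehog tumour markers had sums below SG in every floxed library. Of these, 5 of 13 were called lower in YSGr and 0 in YSGnr, beside 3.97% and 2.17% of all genes. In YSGnr 5 of the 13 averaged above SG and 8 below, with a median log2 fold change of -0.07. YSGr replicate 2, the library with the highest Myof, had the lowest sum of these tumour markers, 2679 CPM. The part of cell make-up in the Myof and Ajuba values was not tested.

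**Figure D3:**
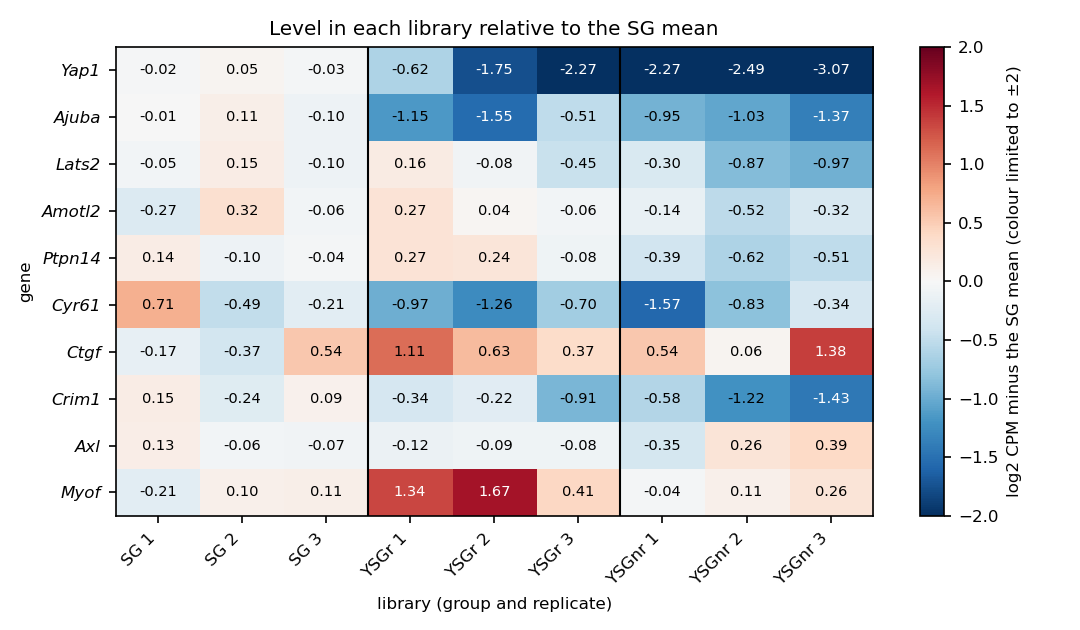
Level of Yap1 and each target in each library relative to the SG mean (log2 CPM minus the SG mean, colour limited to 2 log2 units either way). Ajuba is below the SG mean in all 6 floxed libraries, Ctgf is above it in all 6, and Myof is highest in YSGr replicates 1 and 2, at 1.34 and 1.67.

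Between the floxed groups, YSGr was above YSGnr for 7 of the 9 targets, with a median log2 difference of 0.41, beside 0.01 over all tested genes. Ptpn14, Myof and Amotl2 had no overlap between the groups, 3 of 9 and all higher in YSGr, where 22.5% of all genes had no overlap (15% higher in YSGr, 7.46% lower). Differences were 0.59 for Lats2 (95% confidence interval 0.10 to 1.08, adjusted p = 0.103 by limma), 0.58 for Crim1 (-0.01 to 1.17, adjusted p = 0.151) and 0.41 for Amotl2 (0.00 to 0.82, adjusted p = 0.146). Yap1 itself was higher in YSGr than in YSGnr by 1.06 log2 units without passing the test (adjusted p = 0.0959). With the length and GC trend removed the 3 target differences were 0.34, 0.29 and 0.15, and none of the 9 targets was called.

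How many targets were called depended on single libraries. Leaving out any 1 of the SG libraries left 0 of the 9 targets called in every comparison, with 328 to 417 of 15251 genes called in YSGr against SG, 19 to 23 in YSGnr against SG, 8 to 10 between the floxed groups and 68 to 135 in the mean of the floxed groups against SG. Between the floxed groups, leaving out YSGr replicate 1 or 2 or YSGnr replicate 2 or 3 left 1 to 4 genes called, none of them a target. Omission of YSGr replicate 3 or YSGnr replicate 1 raised the count of all genes called in every comparison. The count of targets rose in every comparison except YSGr against SG, where it stayed at 2. With YSGr replicate 3 left out, 2 of 9 targets were called in YSGr against SG (27.9% of all genes), 4 in YSGnr against SG (17.3%), 4 between the floxed groups (42.8%) and 2 in the mean of the floxed groups against SG (17%). With YSGnr replicate 1 left out the counts in the same order were again 2, 4, 4 and 2, beside 15.7%, 21.8%, 31% and 15.9% of all genes. With both left out they were 3, 6, 6 and 5 of 9, beside 49.5%, 52.9%, 64.7% and 43.2%. Without YSGnr replicate 1 the floxed groups differ completely in Xist and Y-linked transcripts. Sex make-up and group then cannot be told apart between YSGr and YSGnr either. With all libraries kept and the length and GC trend removed the counts were 2, 1, 0 and 2, beside 13.3%, 5.26%, 11.6% and 8.64%. In the fits without YSGr replicate 3, without YSGnr replicate 1, without both and with the trend removed, Ajuba was called lower in both comparisons with SG and Myof was called higher in YSGr against SG.

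**Figure D4:**
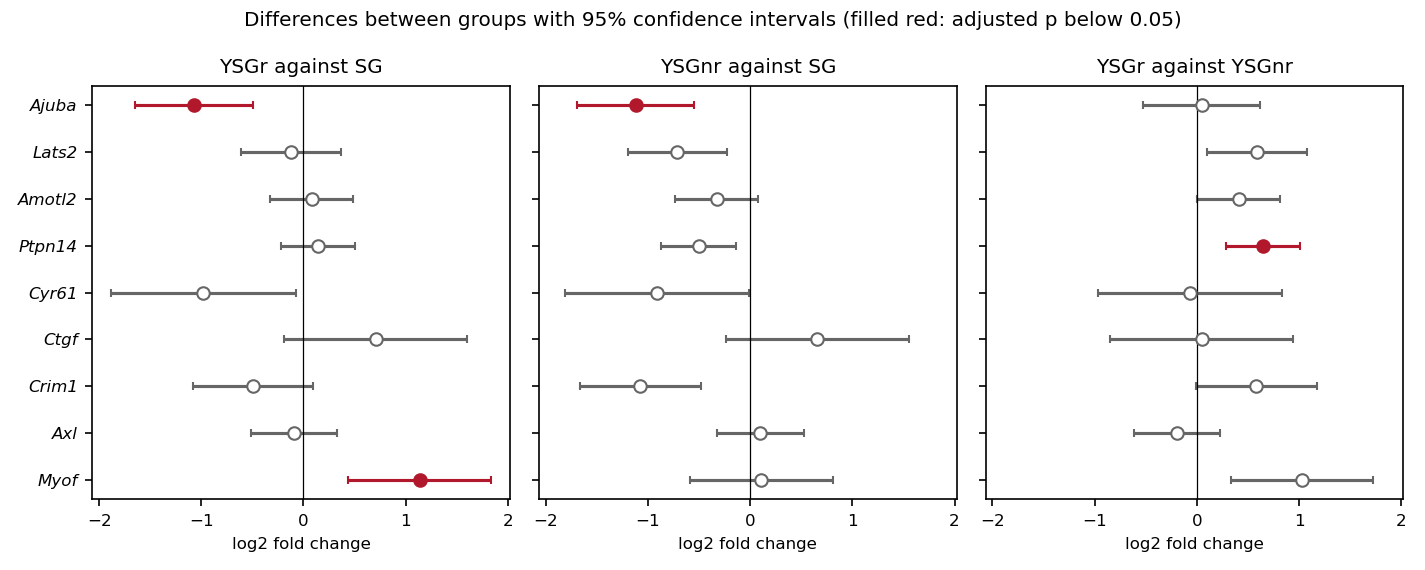
Log2 fold change of each target with its 95% confidence interval in 3 comparisons (points, limma over all 9 libraries; filled red where the adjusted p is below 0.05). Only Ajuba is called in both comparisons with SG, at -1.07 and -1.12, Myof is called at 1.14 in YSGr against SG, and Ptpn14 at 0.65 in YSGr against YSGnr.

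A further 13 genes of commonly used YAP and TAZ target lists, none among the 10, gave a similar mixture. In YSGr 2 of 13 were called higher and 1 lower, beside 6.58% and 3.97% of all genes. In YSGnr 1 was called higher and 1 lower, beside 1.19% and 2.17% of all genes. Their median log2 fold changes were -0.10 and -0.23, beside -0.02 and -0.01 over all tested genes. Asap1, which encodes a GTPase-activating protein for ARF GTPases, fell by 0.99 log2 units from SG to YSGr (adjusted p = 0.00871 by limma) and fell by 0.76 from SG to YSGnr (adjusted p = 0.043). Removal of the length and GC trend left the latter Asap1 log2 fold change at -0.47 (adjusted p = 0.176). Nt5e, the ecto-5′-nucleotidase CD73, rose by 0.72 in YSGr (adjusted p = 0.0221) and by 0.77 in YSGnr (adjusted p = 0.0356), and Gadd45a, a stress-response gene, rose by 0.78 in YSGr (adjusted p = 0.0348). None of the 13 was called between the floxed groups, beside 5.97% of all genes. There Rbms3 differed by 0.83 (adjusted p = 0.0917 by limma) and F3 by -0.68 (adjusted p = 0.0542).

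Upstream of the targets, the genes called among the coactivators, TEAD factors and Hippo cascade were all lower than in SG. Of 18 such genes, 5 were called lower in YSGr and 4 in YSGnr (beside 3.97% and 2.17% of all genes), with none called higher. The medians were -0.53 and -0.62, beside -0.02 and -0.01 over all tested genes. These counts include Yap1 itself. Wwtr1, the gene of TAZ, fell by 0.65 log2 units from SG to YSGr (adjusted p = 0.0206 by limma) and fell by 1.04 from SG to YSGnr (adjusted p = 0.0111). Tead1 fell by 0.96 and by 1.34 in the same comparisons (adjusted p = 0.0216 and 0.0162).

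The other TEAD genes were not called against SG. Tead2 averaged 7.81 log2 CPM over SG libraries, 6.64 over YSGr and 7.94 over YSGnr and was not called in any comparison. Nor was Tead3 in any. Tead4 averaged 0.02 log2 CPM over SG libraries, 0.85 over YSGr and -0.76 over YSGnr, a difference of 1.61 between the floxed groups. It passed the filter at 0 log2 CPM only through the YSGr libraries, where it was highest, so no call is read from that difference. Wwc1 (KIBRA, an upstream activator of the cascade) fell by 1.05 in YSGr and Amotl1 fell by 0.70 there, while Amot fell by 1.17 in YSGnr. After removal of the length and GC trend, the Wwtr1 and Tead1 log2 fold changes in YSGnr were -0.82 (adjusted p = 0.0122) and -0.84 (adjusted p = 0.0365).

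Calls of these other genes also rested on single libraries. Over the 9 single omissions, the call of Egr1 in YSGr was kept in 9, that of Asap1 in YSGr in 8 (lost without SG replicate 1) and that of Wwtr1 in YSGnr in 6 (lost without any 1 of the SG libraries). The other calls named here for immediate early, YAP target and Hippo pathway genes other than Yap1 were kept in 2 to 5 of 9.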

How the data were processed

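The authors deposited 1 table of log2 CPM (read counts scaled to library size, on a log2 scale) with 17482 genes and 9 libraries. Trizol-type extraction and sequencing by BGI on DNBseq are given per the labels' protocols. Per the submitters' processing notes, Trimmomatic, RSEM, Bowtie2, Picard, edgeR and build mm10 were used. Versions, annotation and strandedness are not stated there. As worked out from the values, the log scale carries an added count of 2 reads on average, with a lowest value of -3.52, so it understates changes of low genes. Worked back to reads, 62.4% to 69.0% of values lay within 0.02 of a whole number, so no count test was used.

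The deposited log2 CPM of all 9 libraries entered 1 group-means model in limma 3.58.1 (R 4.3.3), with eBayes moderation along a mean-variance trend and two-sided tests. Genes entered above 0 log2 CPM in at least 3 libraries, and "called" means an adjusted p (Benjamini-Hochberg, 15251 genes) below 0.05. The 4 contrasts were YSGr and YSGnr against SG, YSGr against YSGnr, and the mean of both floxed groups against SG. The steps were tested on simulated data. Members and lists were chosen with earlier results of these data known. Named were all members, Yap1, Wwtr1, the TEAD genes and 3 sex-linked genes, per other list up to 4 called genes of largest change or 2 uncalled as values, and the 2 nearest genes of each called member. Alternatives were other filters, scalings and models, each library left out, the replicate number as a block, and a trend on transcript length and GC (splines with 4 degrees of freedom each; lengths from GENCODE M21, whose assembly GRCm38 is that of mm10; 98.9% of symbols matched) removed from each library. Promoter sequences came from RefSeq on GRCm38.p6, and motifs were searched on both strands of the 250 bases before each start.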

Additional observations from a re-analysis of the deposited data

How the results depend on the processing

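Among the recomputed fold changes of the 9 targets, 618 kept their direction and their side of the threshold, 48 no longer passed the threshold, 48 newly passed it and 33 changed sign. With 2, 1, 1 and 1 targets called in YSGr against SG, YSGnr against SG, YSGr against YSGnr and all floxed against SG, the counts were in the same order 1, 0, 0 and 1 with no filter, 1, 1, 0 and 1 with median scaling and with quantile normalization, 2, 1, 0 and 1 with a pseudocount of 1 CPM, 2, 0, 0 and 1 with no mean-variance trend, and 2, 1, 0 and 2 with the length and GC trend removed. The 2 groups of a comparison fitted alone gave 1, 2 and 0. Array weights gave 7, 4, 6 and 5 of 9, in fits that called 63.3%, 48%, 65.4% and 48.8% of all genes, with weights of 0.104 for YSGr replicate 3 and 0.117 for YSGnr replicate 1, from an estimate that did not reach its tolerance. Leaving both these libraries out gave 3, 6, 6 and 5, in fits that called 43.2% to 64.7% of all genes. Single omissions gave 0 to 2, 0 to 4, 0 to 4 and 0 to 2. The largest counts came without YSGr replicate 3 or without YSGnr replicate 1, and all genes called ranged from 328 to 4257, 19 to 3332, 1 to 6528 and 68 to 2589.

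With the replicate number as a block, no target was called in the first 3 comparisons (0, 0 and 0) and 1 was called in all floxed against SG. The block gave Ajuba an adjusted p of 0.0547 in YSGr and 0.0703 in YSGnr (0.0637 with the trend removed too), Myof 0.0678 in YSGr and Ptpn14 0.0586 between the floxed groups, by limma. With the trend removed as well as the block, the counts were 2, 0, 0 and 1. Deviations of same-numbered libraries correlated between -0.23 and 0.24 over genes, not all above 0.1, so the numbers were not treated as pairing the libraries.

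Signs changed for differences near 0. Ajuba between YSGr and YSGnr was -0.026 with quantile normalization, -0.056 with array weights, -0.10 with the trend removed (with the block too) and -0.15 with both libraries out. Amotl2 in YSGr against SG was -0.090 with the trend removed (with the block too). Axl in all floxed was -0.00074 with quantile normalization and -0.024 with the trend removed (with the block too). Cyr61 between the floxed groups was 0.067 with the trend removed (with the block too). Lats2 in YSGr against SG was 0.16 with array weights and 0.041 with both out, and Ptpn14 in all floxed was 0.0077 with the trend removed (with the block too). Single omissions ranged from -0.23 to 0.29 (Ajuba, floxed groups), -0.053 to 0.24 (Amotl2, YSGr against SG), -0.26 to 0.039 (Amotl2, all floxed), -0.046 to 0.33 (Axl, YSGnr against SG), -0.071 to 0.12 (Axl, all floxed), -0.25 to 0.41 (Ctgf, floxed groups), -0.39 to 0.22 (Cyr61, floxed groups) and -0.26 to 0.041 (Lats2, YSGr against SG). The causes were not tested. Reads limit Cyr61, Ctgf and Myof, above all in YSGnr replicate 1.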
